A study of Mus musculus with 4 samples.

Results

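The mesodermal and myogenic bHLH genes are 10 genes that encode basic helix-loop-helix transcription factors of mesoderm and muscle: Twist1, Twist2, Hand1, Hand2, Tcf21, Tcf15, Msc, Myf5, Myf6 and Myod1. They were chosen by name from 21951 protein-coding genes, and for each gene every H3K27me3 peak inside it or within 20 kb of it was taken from the peak lists of yolk sac erythro-myeloid progenitors (EMPs). The peaks around the 10 genes numbered 56 of 10223 in the library made from 500 EMPs and 33 of 15282 in the library made from 15000 EMPs. The rows that the authors' annotated tables place under the same symbols were read beside them.

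Proteins of this family pair with the ubiquitous E proteins through their helix-loop-helix region and bind the short E-box sequence in DNA through their basic region. Each is best known from a lineage that EMPs do not normally form. Twist1 and Twist2 are known from mesenchyme, and Hand1 and Hand2 from the heart and lateral mesoderm. Tcf21 and Tcf15 are known from visceral and paraxial mesoderm. Msc is known from head and body muscle precursors, and Myf5, Myf6 and Myod1 from skeletal muscle. H3K27me3 is the repressive histone mark placed by Ezh2 within the Polycomb repressive complex PRC2, which in mammals is found mainly at CpG-rich starts of developmental regulators.

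The study asked which genes carry this mark in EMPs, and profiled it by CUT&RUN, in which an antibody tethers a nuclease that releases the DNA around its target. All libraries came from E10.5 yolk sac of the C57BL/6 strain, and the genotype label reads Ezh2fl/fl; Tie2-Cre+/+ together with the words wild type, so the cells were taken as wild type. Tie2-Cre acts in endothelium, and the EMPs were sorted by flow cytometry as lineage-negative cells positive for KIT, CD41 and CD16/32. An H3K27me3 library and an IgG library were made at each of the 2 cell numbers, so every group held 1 library.

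The libraries from 500 EMPs had 17 PCR cycles and 76 bp paired-end reads, those from 15000 EMPs had 16 cycles and 59 bp reads, and each pair was run on a different instrument. The authors called peaks at a stricter P value for 500 EMPs and state a lower sequencing depth and alignment rate for that library. Cell number therefore cannot be told apart from amplification, read length, instrument, depth and threshold. The peak files hold positions without scores or read counts, so the depth is unknown from the files, a peak is present or absent, and the length covered by peaks is the only graded measure. With 1 library per group there was no test and no spread between replicates, and each difference below is one between 2 libraries. IgG libraries entered only as the control for peak calling.

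The sequence just before the start is shown for the 5 genes with an entry in the RefSeq promoter table (GRCm38.p6), to show how far the genes differed in CpG content there. Each line gives the 250 bases before the RefSeq start, 5′ to 3′ along the gene, with every CG dinucleotide in capitals.
Twist1, chr12:33957421-33957670 (+): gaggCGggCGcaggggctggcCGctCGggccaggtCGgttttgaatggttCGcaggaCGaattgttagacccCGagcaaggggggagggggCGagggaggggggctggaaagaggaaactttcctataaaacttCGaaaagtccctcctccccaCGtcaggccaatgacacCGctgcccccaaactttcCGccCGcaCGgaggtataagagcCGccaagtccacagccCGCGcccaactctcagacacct
Twist2, chr1:91801211-91801460 (+): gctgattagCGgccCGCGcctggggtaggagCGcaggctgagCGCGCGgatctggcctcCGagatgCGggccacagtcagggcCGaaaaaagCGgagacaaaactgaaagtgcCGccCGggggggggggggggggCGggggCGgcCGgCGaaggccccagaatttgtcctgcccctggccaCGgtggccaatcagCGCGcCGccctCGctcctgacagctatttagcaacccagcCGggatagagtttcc
Hand2, chr8:57320733-57320982 (+): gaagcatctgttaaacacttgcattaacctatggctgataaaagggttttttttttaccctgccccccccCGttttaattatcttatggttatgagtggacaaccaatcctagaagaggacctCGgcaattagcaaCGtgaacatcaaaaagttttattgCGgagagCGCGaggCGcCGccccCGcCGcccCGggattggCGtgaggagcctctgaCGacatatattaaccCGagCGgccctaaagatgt
Tcf21, chr10:22820144-22820393 (-): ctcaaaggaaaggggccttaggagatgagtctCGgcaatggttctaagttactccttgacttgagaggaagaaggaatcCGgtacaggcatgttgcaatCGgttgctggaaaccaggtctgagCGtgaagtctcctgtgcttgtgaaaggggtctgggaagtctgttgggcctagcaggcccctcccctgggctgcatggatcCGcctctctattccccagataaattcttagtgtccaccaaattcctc
Myf5, chr10:107486135-107486384 (-): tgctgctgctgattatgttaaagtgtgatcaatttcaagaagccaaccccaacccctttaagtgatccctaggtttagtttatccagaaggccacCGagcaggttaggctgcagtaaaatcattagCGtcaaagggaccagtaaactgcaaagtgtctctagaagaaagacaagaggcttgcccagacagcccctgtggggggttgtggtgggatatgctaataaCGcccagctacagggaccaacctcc
Hand1, Tcf15, Msc, Myf6 and Myod1 were not in the table.

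Twist2 had 23 CG dinucleotides in its 250 bases, Twist1 18 and Hand2 15, against a median of 6 over 32841 promoters. Tcf21 had 5 and Myf5 had 3, the fewest of the 5 genes shown and the only ones below that median. Twist1, Twist2 and Hand2 were also the genes whose printed bases held no peak with 500 EMPs although peaks lay on both sides of the start. With 15000 EMPs the stretch was covered in full at Twist1, Hand2 and Tcf21, over 19 of 250 bases at Twist2 and over 0 at Myf5. At Tcf21 the RefSeq start lay 31 bp from the GENCODE start that the peak distances below use.

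The E-box CANNTG, which reads the same on both strands, occurred 2 times before the Hand2 start, as CATCTG and CACTTG, and 0 times in the 250 bases of Twist1, Twist2, Tcf21 and Myf5. It was present in 66.2% of all promoters at this length. The form CAGCTG, which is one of the CANNTG forms, occurred in none of the 5 and in 13% of all promoters, and 5 genes are too few for a contrast. The TATA box TATAAA, searched on both strands, occurred 1 time, before Twist1, and in 12.4% of all promoters. With the 50 bases after the start included it also occurred at Myf5, and in 13.6% of all promoters. These matches are letters in the sequence and were not tested for binding.

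H3K27me3 lay at 8 of the 10 genes in both libraries, namely all but Myf5 and Myf6. With 500 EMPs, 8 of 10 genes had a peak in the gene or within 20 kb, where 18.5% of all protein-coding genes did. With 15000 EMPs the count was the same 8 of 10, against 30.1% of all genes. Within 3 kb of the transcription start the count was again 8 of 10 in each library, against 9.92% of genes with 500 EMPs and 17% with 15000 EMPs. All 8 had such a peak in both libraries, where 9.82% of genes did, and 0 of 10 had one with 15000 EMPs alone, where 7.17% did.

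The start base itself lay inside a peak for 2 of 10 genes with 500 EMPs, Hand1 and Myod1, against 1.4% of all genes. With 15000 EMPs it did so for 7 of 10 genes, against 8.62% of all genes. Hand1 and Myod1 were covered in both, against 1.31% of all genes, and Twist1, Hand2, Tcf21, Tcf15 and Msc with 15000 EMPs alone, against 7.32%. Twist2 was the gene with peaks whose start stayed outside a peak in both libraries.

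**Figure D1:**
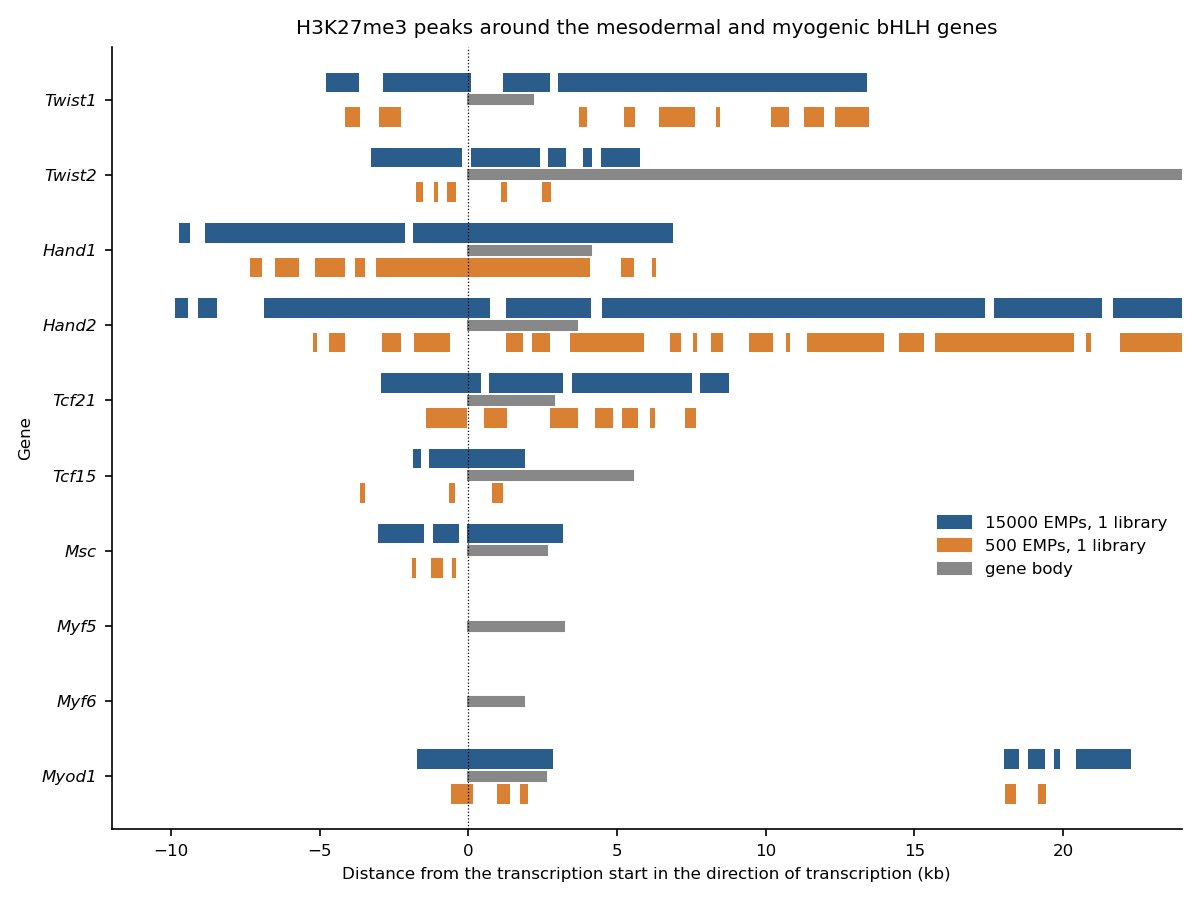
Peaks of the 500-EMP library (orange) and the 15000-EMP library (blue) around each gene, drawn to scale against the distance from the transcription start in kb, with the gene body in grey. Each library is 1 sample, and the axis ends before the far ends of the Twist2 gene and the Hand2 peaks. It also leaves out the distant upstream peaks of Twist2, Hand1, Tcf21 and Myod1. Myf5 and Myf6 have no peak, and at 5 of the other 8 genes the blue blocks cross the start where the orange blocks stop short of it.

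Within 3 kb on either side of the start, a window of 6001 bp, peaks covered a median of 947.5 bp over the 10 genes with 500 EMPs and 5001 bp with 15000 EMPs. Over the 8 genes with peaks the medians were 1306 and 5422.5 bp. Among all genes with any covered base in that window the medians were 789 and 2743 bp. With 15000 EMPs each of the 8 genes lay above that median, whereas with 500 EMPs Twist1, Tcf15 and Msc lay below it.

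Within 3 kb of the start, the 8 genes gained length from 500 to 15000 EMPs in 7 cases and lost it in 1, Hand1. Within 20 kb of the gene Hand1 gained too, from 10386 to 15821 bp. The ratio of length covered within 3 kb, 15000 over 500 EMPs, ranged from 0.953 at Hand1 to 8.32 at Msc, with a median of 3.93. The median over all genes covered with 500 EMPs was 4.23, close to that of the bHLH genes.

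**Figure D2:**
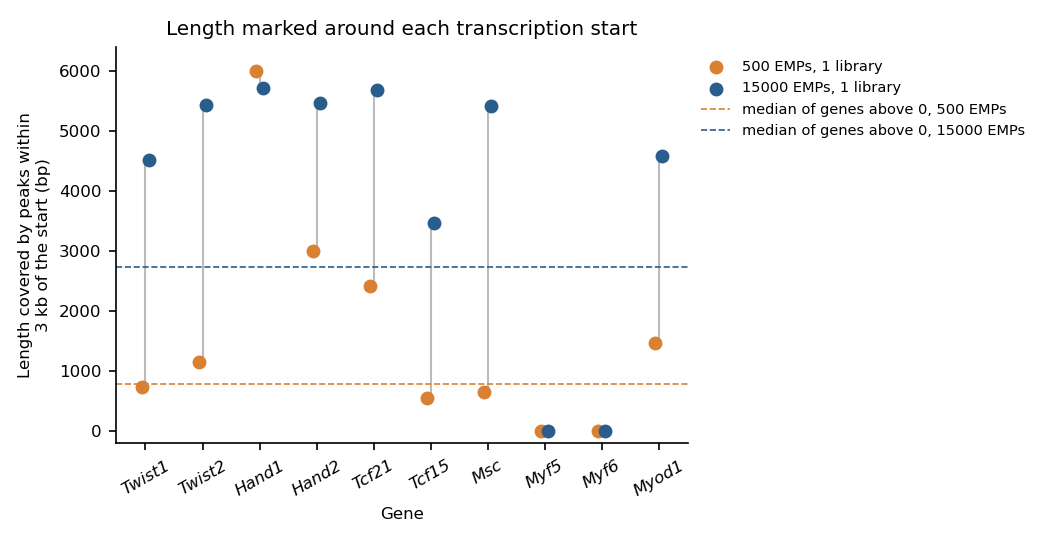
Length covered by peaks within 3 kb of the start in bp for each gene, 500 EMPs in orange and 15000 EMPs in blue, 1 library each, with the dashed lines at the medians of all genes above 0 (789 and 2743 bp). The blue points of the 8 marked genes lie between 3462 and 5721 bp, and the orange points spread from 553 to 6001 bp.

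Hand1, which acts in trophoblast, heart and extraembryonic mesoderm, was the gene with the most mark within 3 kb of its start in each library, and the only one of the 8 marked genes covered over no less of that window with 500 EMPs than with 15000. Within 10 kb Hand2 had more with 15000 EMPs, 17018 bp against 15821 bp. A single 7215 bp peak of the 500-EMP library (chr11:57828719-57835933) crossed the start on the minus strand and took in all of the coding sequence. Only 10 of the 10223 peaks in that list were wider. It covered all 6001 bp of the start window, more than 99.98% of protein-coding genes had.

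With 15000 EMPs an 8734 bp peak (chr11:57825947-57834680) contained the Hand1 gene and a 6721 bp peak lay upstream, and together they covered 5721 bp of the window. The gap between them, upstream of the start, was the only part of the window left out. Around Hand1 as a whole, 7 peaks of the 500-EMP library summed to 10386 bp, against 15821 bp in 3 peaks with 15000 EMPs. A further 184 bp peak lay 33860 bp upstream with 15000 EMPs alone, and the annotated table assigns it to Hand1.

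Hand2, which directs heart, limb and branchial arch development, lay in the widest marked region of the 10 genes. Peaks that lay within 3 kb of each other joined into a stretch of 37921 bp with 500 EMPs and 44447 bp with 15000 EMPs. By width these ranked 11 of 3971 and 22 of 6706 joined stretches in the 2 lists. With 15000 EMPs the stretch reached 34591 bp downstream of the start of this 3651 bp gene, so most of it lay past the gene.

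Hand2 had 17 peaks within 20 kb with 500 EMPs and 7 with 15000 EMPs. The 7590 bp peak of the 15000-EMP library (chr8:57314123-57321712) crossed the start, and a 12863 bp peak (chr8:57325486-57338348) followed beyond the gene, ranked 87 in its list. That second peak overlapped 9 separate peaks of the 500-EMP library. With 500 EMPs the start lay in a gap of 1873 bp, with the nearest peaks 607 bp upstream and 1267 bp downstream. The covered length in the start window was 3002 bp with 500 EMPs and 5464 bp with 15000 EMPs.

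Few of the peaks around Hand2 carry its name in the annotated tables, which assign peaks to nearby annotated features. With 500 EMPs 4 of the 17 were listed under Hand2, 3 under Hand2os1 and 10 under Hdnr, which are long noncoding RNA genes of the same locus. With 15000 EMPs 3 were listed under each of the 3 symbols, and peaks that touch 2 features were listed more than once. Hand2os1 starts 3250 bp downstream of the Hand2 start on the opposite strand, and Hdnr, which GENCODE names 5033428I22Rik, starts 11135 bp downstream on the same strand.

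Twist1, a regulator of mesenchyme and cranial suture formation, was marked more heavily beyond its 3′ end than at its start. With 500 EMPs 2 peaks lay upstream and 7 downstream, the nearest 2256 bp from the start, and none touched the gene. They left a gap of 5990 bp over the whole gene, the widest of the gaps at the 5 starts that lay between peaks of that library. The covered length in the start window was 745 bp, all of it upstream.

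With 15000 EMPs a 2947 bp peak (chr12:33954796-33957742) reached 71 bp past the Twist1 start, and the covered length was 4512 bp. A 10395 bp peak (chr12:33960680-33971074) lay from 3009 to 13403 bp downstream and contained or overlapped all 7 downstream peaks of the 500-EMP library. No peak of either library touched the Twist1 coding sequence, so 0% of it was covered in both. Between the start and the end of the gene 49.0% was covered with 15000 EMPs, within the 3′ part and those first bases.

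Twist2, the close relative of Twist1 in dermis and mesenchyme, was marked around its start, with the rest of the long gene body free of peaks. Peaks of the 500-EMP library covered 1150 bp of the start window in 5 pieces of 137 to 303 bp. With 15000 EMPs 3039 bp upstream and 2348 bp downstream of the start were covered by 1 peak each, and the window total was 5430 bp. The break between those 2 peaks was 306 bp wide and held the start, 232 bp past the upstream peak and 75 bp before the downstream one.

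The Twist2 coding sequence was covered in full with 15000 EMPs and not at all with 500 EMPs. The gene is 46568 bp long, however, and only 9.77% of it lay under peaks with 15000 EMPs and 1.05% with 500 EMPs. With 15000 EMPs the coding sequence thus lay outside the peaks at Twist1 and inside them at Twist2, while with 500 EMPs it lay outside them at both. A further pair of peaks, 29479 and 30633 bp upstream of Twist2, was present with 15000 EMPs alone.

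**Figure D3:**
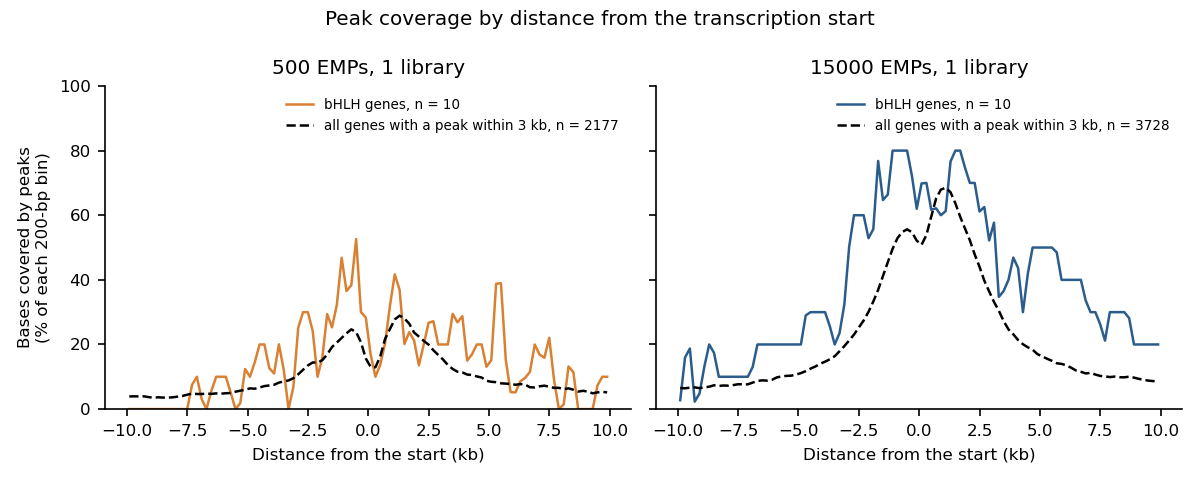
Share of bases covered by peaks in 200-bp bins by distance from the transcription start, for the 10 bHLH genes (solid) and for all genes with a peak within 3 kb (dashed), in each library. Coverage dips at the start in the dashed lines too, and the solid lines stay above the dashed ones at 5 kb downstream in the 15000-EMP library.

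Tcf21, a regulator of epicardium, kidney and lung mesenchyme, was marked on both sides of its start and again at a distance. With 500 EMPs a 1399 bp peak ended 34 bp before the start, and the covered length was 2424 bp. With 15000 EMPs a 3365 bp peak (chr10:22819741-22823105) crossed the start and the covered length was 5679 bp. The gap over the start with 500 EMPs, 558 bp, was the narrowest of the 5 genes whose start lay between peaks of that library.

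A separate marked site lay upstream of Tcf21 in both libraries. With 15000 EMPs it was a 3733 bp peak 21321 bp from the start and a 378 bp peak at 25332 bp. With 500 EMPs it was a 567 bp peak and a 137 bp peak, and both fell wholly inside those of the larger library. These lie beyond the 20 kb limit and were not among the counted peaks, but the annotated tables list them under Tcf21.

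Tcf15, known as paraxis and needed for somite epithelium, had the least mark of the 8 marked genes within 3 kb of the start in each library, though within 1 kb its 2001 bp were all covered with 15000 EMPs and 407 bp with 500 EMPs, more than at Twist1, Twist2, Hand2 and Msc with 500 EMPs. The covered length within 3 kb was 553 bp with 500 EMPs and 3462 bp with 15000 EMPs. With 15000 EMPs a 3217 bp peak (chr2:152142238-152145454) crossed the start and covered 87.7% of the coding sequence. With 500 EMPs 2 small peaks flanked it, and another, 179 bp wide and 3479 bp upstream, was the only one of the 56 peaks with no counterpart with 15000 EMPs.

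Msc, or musculin, which acts in precursors of head muscle, showed the largest difference in covered length between the libraries within 3 kb of the start. With 500 EMPs 3 peaks of 137, 377 and 137 bp lay upstream and 0 bp downstream of the start was covered. With 15000 EMPs a 3224 bp peak (chr1:14752809-14756032) contained the whole gene, and no peak of the 500-EMP library overlapped it. The covered length was 651 bp against 5415 bp, a ratio of 8.32.

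The small peaks nearest to the Tcf15 and Msc starts are shown because they were the closest mark seen from 500 EMPs. Both are written 5′ to 3′ along the gene on GRCm38, with each CG in capitals.
Tcf15 peak, chr2:152142907-152143103 (+): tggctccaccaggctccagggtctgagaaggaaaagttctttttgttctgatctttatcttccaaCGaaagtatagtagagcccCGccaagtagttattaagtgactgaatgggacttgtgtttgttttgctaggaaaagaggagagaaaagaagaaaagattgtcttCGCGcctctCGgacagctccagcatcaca
Msc peak, chr1:14756416-14756552 (-): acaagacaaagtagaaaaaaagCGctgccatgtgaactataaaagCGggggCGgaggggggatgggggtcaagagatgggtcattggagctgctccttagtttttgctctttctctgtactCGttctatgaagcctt
The Tcf15 peak is 197 bp wide, lies 458 bp upstream of the start and has 5 CG dinucleotides. The Msc peak is 137 bp wide, the smallest width in the list, lies 424 bp upstream and has 4. Both fell wholly inside a peak of the 15000-EMP library.

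Myod1, the muscle determination factor, was the one myogenic gene of the 3 with the mark. With 500 EMPs a 726 bp peak crossed the start and 2 more lay inside the gene, and the covered length was 1462 bp. With 15000 EMPs a single 4587 bp peak (chr7:46374731-46379317) contained the whole gene, and its full length lay in the window. The coding sequence was covered over 28.6% with 500 EMPs and 100% with 15000 EMPs.

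An upstream site was present at Myod1 too. A 3046 bp peak of the 15000-EMP library lay 25613 bp upstream, and peaks of 547 and 196 bp of the 500-EMP library lay inside it. The annotated tables list these under Myod1, together with a 137 bp peak 59249 bp upstream that was seen with 500 EMPs alone. Of the 5 peaks within 20 kb in each library, 2 with 500 EMPs and 4 with 15000 EMPs lay next to the start of Kcnc1, a potassium channel gene 20023 bp downstream, and are listed under that gene.

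Myf5 and Myf6 are neighbours on chromosome 10 whose starts lie 8603 bp apart, and they act at the onset of myogenesis and in its later steps. Neither had a peak, and neither symbol occurs in the annotated tables of either library. The nearest peak to the Myf5 start was 215440 bp away with 500 EMPs and 212149 bp away with 15000 EMPs. For Myf6 the distances were 224043 and 220752 bp to the same peaks, the larger of which is a 3644 bp peak at Lin7a. Widening the limit to 50 kb gave no peak for either gene, and with 1 shared locus they count as 1 observation.

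The annotated tables held 46 rows under the 10 symbols with 500 EMPs and 31 with 15000 EMPs, all of them under the 8 marked genes. With 500 EMPs 24 were placed upstream of the gene, 13 downstream, 6 inside, 2 over the start and 1 over the end. With 15000 EMPs 15 were upstream, 3 downstream, 4 inside, 4 over the start and 2 over the end, and 3 contained the whole gene, namely Hand1, Msc and Myod1. By length rather than by row, 50.9% of the covered bases within 20 kb of the genes lay downstream with 500 EMPs and 43.1% with 15000 EMPs, with Hand2 and Twist1 as the main contributors.

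Peaks around the 8 marked genes were long compared with the lists they came from. The median width was 427 bp with 500 EMPs against 363 bp over that list, and 2348 bp with 15000 EMPs against 770 bp. Peaks wider than 5 kb numbered 6 of 33 with 15000 EMPs, at Twist1, Hand1 and Hand2, where the whole list held 875. With 500 EMPs there was 1, the Hand1 peak, of 30 in the list. Of the 56 peaks 9 had the smallest width of 137 bp, a share of 16.1% against 17.2% of all peaks.

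Of the 56 peaks with 500 EMPs, 55 overlapped a peak of the other library by at least 1 bp, or 98.2% (95% Wilson interval 90.6 to 99.7%). Over the whole list the share was 91.2%. In reverse, 22 of 33 peaks with 15000 EMPs overlapped one with 500 EMPs, 66.7% (49.6 to 80.2%), against 32.2% of all. The intervals cover counting error only and treat neighbouring peaks as independent, which peaks at 1 gene are not.

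By length, 94.9% of the bases under the 500-EMP peaks were also under 15000-EMP peaks, and 43.1% the other way. Over the whole lists these shares were 93.0% and 23.1%. The 11 peaks seen with 15000 EMPs alone were spread over all 8 genes. They included the peak that contained Msc, the 1565 bp peak over the 3′ end of Twist1 and a 1843 bp peak just inside Kcnc1.

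Gaps between peaks were measured inside the joined stretch nearest the start of each of the 8 marked genes. Their median was 553 bp over 44 gaps with 500 EMPs and 308 bp over 24 gaps with 15000 EMPs. At Twist1 with 500 EMPs that stretch held only the 2 upstream peaks. Pieces seen with 500 EMPs were not the CpG-densest part of the marked stretch: within the 15000-EMP peaks around these genes, the bases also under a 500-EMP peak had 2.23 CG per 100 bases and the remaining bases 2.75. Over all 15000-EMP peaks that held a 500-EMP peak the values were 2.15 and 2.67. Hand1 with 2.85 against 2.17 and Twist2 with 4.31 against 2.55 were the exceptions among the 8 genes.

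Coverage dipped over the starts, as it did for marked genes in general. In bins of 200 bp, peaks of the 500-EMP library covered 52.6% of bases in the bin centred 500 bp upstream of the 10 starts and 10% in the bin centred 300 bp downstream. Over all genes with a peak within 3 kb the same bins gave 23.8% and 12.95%. With 15000 EMPs the difference between these bins was smaller, with 80% and 70% at the 10 starts. Over all genes with a peak within 3 kb they gave 55.6% and 53.9% in that library. The 10 starts include those of Myf5 and Myf6, which had no peak. CpG observed over expected is the number of CG dinucleotides divided by that predicted from the C and G content. Of the 5 genes in the 500-EMP library whose start lay in a gap between peaks, the gap had a CpG observed over expected of 0.576 at Tcf21, 0.668 at Twist1, 0.790 at Twist2, 0.827 at Hand2 and 0.976 at Tcf15.

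Among the 1893 genes whose start was covered with 15000 EMPs, 287 were also covered with 500 EMPs. Split into 4 classes of like size by this ratio, the share was 14.8, 15.4, 16.5 and 13.9% from the lowest class, which held Hand1, to the highest, which held Twist1, Hand2 and Tcf15. The share of start bases covered was not ordered by CpG class, but the length covered within 3 kb was. Its median rose over the 4 classes from 267 through 397 and 796 to 1403 bp with 500 EMPs, and from 3021 through 3648 and 4320 to 4852 bp with 15000 EMPs.

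The 2 genes without the mark had the most CpG-poor starts of the 10. Over 1 kb on either side of the start, the ratio was 0.865 at Tcf15, 0.816 at Hand2, 0.811 at Twist1, 0.722 at Twist2 and 0.595 at Msc. It was 0.536 at Myod1, 0.516 at Tcf21 and 0.423 at Hand1. Myf5 with 0.376 and Myf6 with 0.290 had the lowest ratios of the 10, below the median of 0.474 over all genes.

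Hand1 also lay below that median, yet had the most mark within 3 kb of its start, unlike the rise of covered length with CpG class over the 1893 genes given above. Over all protein-coding genes the median ratio was 0.568 for genes with a peak within 3 kb with 15000 EMPs and 0.427 for genes without. At or below the ratio of Myf5 there were 9089 genes, of which 3.17% had such a peak with 500 EMPs and 7.00% with 15000 EMPs. Over genes of any CpG content the shares were 9.92% and 17%. The part of CpG content in the absence of peaks at Myf5 and Myf6 was not tested.

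**Figure D4:**
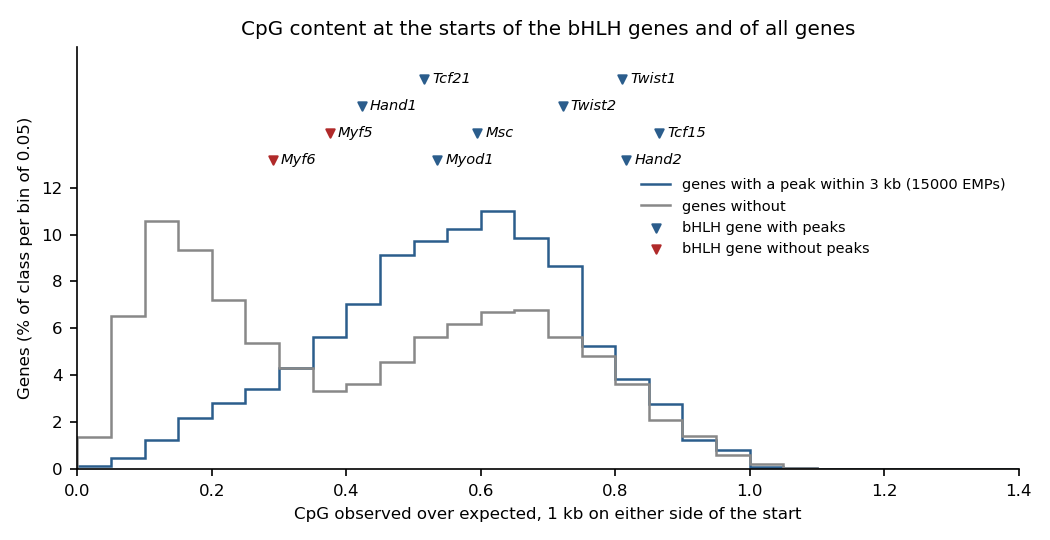
CpG observed over expected within 1 kb of the start, as a share of genes per bin of 0.05, for genes with (blue line) and without (grey line) a peak within 3 kb in the 15000-EMP library. Triangles mark the 10 bHLH genes at arbitrary heights, and the red ones, Myf6 at 0.290 and Myf5 at 0.376, lie to the left of the 8 marked genes.

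Of a list of 8 other bHLH genes, most of them mesodermal, 3 were marked in each library, beside 9.92% and 17% of all genes. Of these 8 genes, Mesp1, Ferd3l and Bhlha9 had a peak within 3 kb in both libraries. Myog, Mesp2, Msgn1, Scx and Tcf23 had none in either. Myog, the differentiation factor that acts after Myod1, was 52498 bp from the nearest peak with 15000 EMPs. Mesp1, an early cardiac mesoderm gene, had 324 bp covered with 500 EMPs and 3814 bp with 15000 EMPs, while its neighbour Mesp2 was 15984 bp from the nearest peak.

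The genes of the dimerisation partners and their inhibitors were marked at 3 of 7 in each library, beside 9.92% and 17% of all genes. The E protein genes Tcf3, Tcf4 and Tcf12 had no peak within 3 kb, and of the Id genes, whose products sequester E proteins, Id2, Id3 and Id4 had one in both libraries and Id1 in neither. The blood bHLH genes Tal1 and Lyl1, which are active in hematopoietic progenitors, had none. Of 10 genes that mark EMPs, among them Kit, Runx1, Itga2b and Gata1, 0 had a peak within 3 kb in either library, beside 9.92% and 17% of all genes, and this does not show which cells were present.

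The 10 regulators reported here that act with or before the myogenic genes were marked at 6 of 10 with 500 EMPs and 8 of 10 with 15000 EMPs, beside 9.92% and 17% of all genes. The list was shortened, so these counts describe the named genes alone. Pax3, Pax7, Eya2, Meox1, Meox2 and Lbx1 had a peak in both, Six4 and Eya1 with 15000 EMPs alone, and Mef2a and Mef2c in neither. Pax3, which acts upstream of Myod1, had 3135 bp covered with 500 EMPs and all 6001 bp with 15000 EMPs. The cardiac regulators Nkx2-5, Gata4, Gata6, Tbx5, Tbx20, Isl1 and Myocd had a peak in both libraries, where 9.82% of all genes did. Mef2c, which also acts in blood, had none in either.

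Of the skeletal muscle effector genes, the structural and enzymatic genes downstream, Acta1 and Des had a peak within 3 kb in both libraries and Ckm with 15000 EMPs alone. Myh3, Myh8, Mymk, Mymx, Tnnt3, Tnni2, Chrna1, Ttn and Mylpf had none. The count was 2 of 12 with 500 EMPs and 3 of 12 with 15000 EMPs, shares not far from the 9.92% and 17% of all genes given above.

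**Figure D5:**
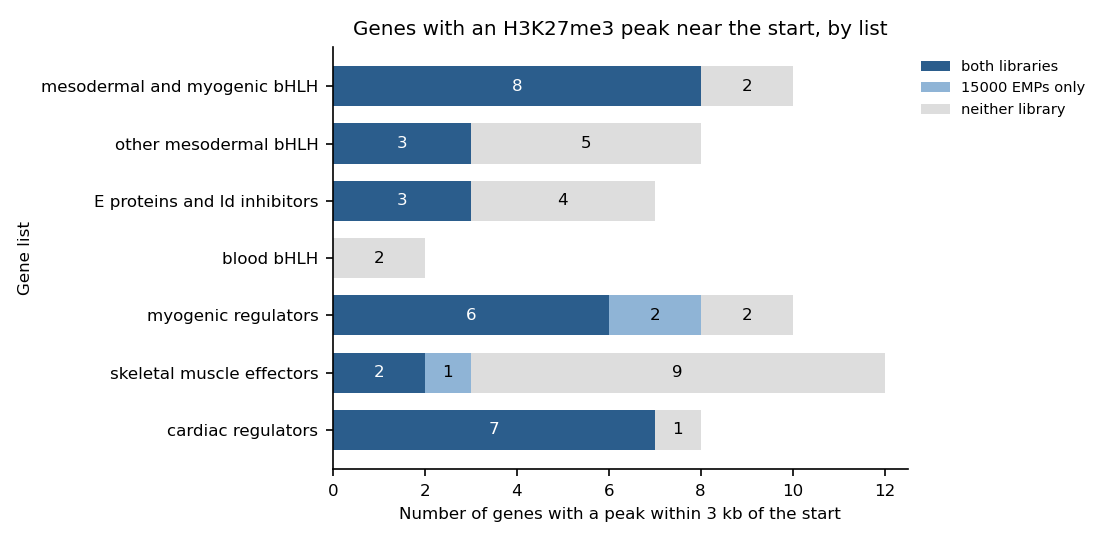
Number of genes in each list with an H3K27me3 peak within 3 kb of the start, split into both libraries, 15000 EMPs only and neither, with 1 library per cell number. Marked in both libraries, beside 9.82% of all genes, were 8 of 10 bHLH genes, 6 of 10 myogenic regulators and 7 of 8 cardiac regulators. So were 2 of 12 muscle effectors and 0 of 2 blood bHLH genes. The myogenic regulator list was shortened, and Mef2c is counted in 2 lists.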

How the data were processed

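CUT&RUN for H3K27me3 and IgG was performed on 500 and 15000 EMPs with 1 library per group, and the sample labels gave the groups. Per the submitters' processing notes and methods, the authors aligned reads to mm10 with Bowtie2 2.2.1, called broad peaks with MACS2 2.1.2 for each library separately, and annotated them with ChIPpeakAnno. SAMtools 1.9 and deepTools 3.5.1 are also named. In the authors' command listing the libraries stand under swapped P thresholds relative to the methods, and the labels of the deposited lists were followed. The deposited values are peak positions and distances in bp, with no score, count or normalisation.

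Positions were read with Python 3.11.15, made 1-based, and compared with GENCODE gene models on GRCm38 and with the genome sequence through pysam 0.24.0. No peak, 0 in all, ran past a chromosome end. A gene start was the 5′ end of the gene, and overlap meant at least 1 bp. Peaks within 3 kb of each other were joined for the widths of marked stretches. Interval code was tested on simulated data. All 10 genes are named, and each gene of the related lists by whether it had a peak. The myogenic regulator list was shortened to 10 genes, and the genes left out are not reported here. Members and lists were chosen with earlier results of these data known. Alternatives were distance limits, windows, overlap rules, joined peaks, removal of the smallest peaks, other gene starts and the authors' own distances. The 2 IgG libraries were not analysed here beyond their role as control.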

Additional observations from a re-analysis of the deposited data

How the results depend on the processing

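No paired analysis was possible because each group held 1 library, and for the same reason no library could be left out. Of 61 alternative settings for the main results, 49 left the value near that reported and 12 moved it. Near meant within a ratio of 1.5, or inside the Wilson interval for the overlap shares, and reversal was not assessed. The counts of annotated rows had no alternative setting. The count of 8 marked genes within 20 kb held at 5, 10 and 50 kb in both libraries. Within 3 kb it held at 5 kb, with 7 left at 1 kb with 500 EMPs, where Twist1 dropped out. Joining peaks within 3 kb of each other raised the starts inside a peak with 500 EMPs from 2 to 6, raised the median covered length with 500 EMPs to 3376.5 bp, lowered the number of peaks to 10 with 500 EMPs and 9 with 15000 EMPs, and made both overlap shares 100%. A window of 1 kb on either side of the start gave medians of 348.5 bp (500 EMPs) and 1723 bp (15000 EMPs). Asking for 50% of both peaks to overlap gave a share of 5.36% with 500 EMPs and 9.09% with 15000 EMPs, whose peaks differ in width. For the 15000-EMP peaks, 50% of the query peak gave 24.2% and a distance of up to 1 kb gave 81.8%. Library depth and peak strength were unknown from the files.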

Other observations

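Genes that mark the other cell types a yolk sac sort could hold were read in the same lists, as a description of where the mark lay and not of which cells were present. Of all genes, 9.92% had a peak within 3 kb of the start with 500 EMPs, 17% with 15000 EMPs and 9.82% with both. Of 6 mesenchyme and mesoderm markers, Pdgfra, Col1a1, Meox1, Tbx18 and Foxf1 had such a peak in both libraries and Col1a2 in neither. Pdgfra, the receptor that marks early mesenchyme, had 1532 bp of its start window covered with 500 EMPs and 6001 bp with 15000 EMPs. Of 6 endothelial markers, Sox17 had a peak in both libraries, with 2632 and 6001 bp covered, and Kdr with 15000 EMPs alone, with 274 bp. Cdh5, Pecam1, Tek and Emcn had none in either. The EMP markers without a peak within 3 kb were Kit, Itga2b, Fcgr3, Fcgr2b, Runx1, Gfi1b, Myb, Gata1, Spi1 and Ptprc. Fcgr3, which encodes a part of the CD16/32 gate, had a peak just beyond that limit in both libraries, 4121 bp from its start with 500 EMPs and 4057 bp with 15000 EMPs.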
